A study of Mus musculus with 20 samples.

Results

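Foxp3 and 9 surface or secreted molecules of regulatory T cells (Treg) were followed over all groups of the series: Lrrc32, Nrp1, Gpr83, Penk, Klrg1, Ebi3, Itgb8, Il10 and Fgl2. The genes were taken by name from the count table, and all 10 were among its 22068 gene symbols and among the 13309 genes tested. Only 4 of them (Foxp3, Lrrc32, Nrp1 and Gpr83) passed the filter on low counts when it was set on the 16 naive libraries alone. The other 6 passed only because they were high in Treg.

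C57BL/6 mice of 8 to 12 weeks with a Foxp3-GFP reporter gave CD4 T cells, which were sorted from lymph nodes and spleen. The sort removed cells with CD8, with the activation marker CD69, or with surface markers of granulocytes, macrophages, dendritic cells, NK cells or B cells. Naive cells lacked the GFP reporter, were low in CD44, and fell within the 15% lowest (CD5lo) or the 15% highest (CD5hi) for CD5, a surface molecule whose level follows the strength of contact with self-peptide. Fresh cells were lysed directly, whereas rested cells were first kept for 22 hours with interleukin 7 at 10 ng/mL, away from self-peptide. Treg carried the GFP reporter, were lysed directly and had no CD44 or CD5 gate, so they differ from the naive groups in those gates as well as in Foxp3. Each of the 5 groups (fresh CD5lo, fresh CD5hi, rested CD5lo, rested CD5hi and Treg) had 4 libraries, described as biological replicates pooled from males and females.

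Foxp3 is the forkhead transcription factor that defines Treg, and its loss causes fatal autoimmunity. Treg restrain other cells partly through molecules that they display or secrete. Lrrc32 (GARP) holds latent TGF-beta at the surface, and the integrin chain Itgb8 pairs with Itgav to release it. Il10 encodes interleukin 10, and Ebi3 encodes the chain shared by interleukins 27 and 35. Fgl2 is a secreted inhibitor that binds Fc receptors, and Penk is the precursor of enkephalins, opioid peptides. Nrp1 is a semaphorin receptor that marks many Treg of thymic origin, Gpr83 is a G-protein-coupled receptor, and Klrg1 is a cadherin-binding inhibitory receptor of highly differentiated T and NK cells.

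RefSeq sequences upstream of a transcription start were at hand for 6 of the 10 genes, with 7 starts (250 bases each, build GRCm38.p6); no entry was matched for Lrrc32, Penk, Klrg1 and Il10. Those of Foxp3, Gpr83 and Fgl2 are shown because they belong to the factor itself, to the gene that was least restricted to Treg, and to a gene that was nearly silent in naive cells. Each is printed 5′ to 3′ on the gene's own strand and ends at the base before the start, with motif matches in capitals. The first 2 belong to Foxp3, at chrX:7579426-7579675 (+ strand) and at chrX:7580233-7580482 (+ strand), the second lying between annotated exons of the gene. The other two are those of Gpr83 at chr9:14859960-14860209 (+ strand) and Fgl2 at chr5:21372423-21372672 (+ strand).
Foxp3, first start: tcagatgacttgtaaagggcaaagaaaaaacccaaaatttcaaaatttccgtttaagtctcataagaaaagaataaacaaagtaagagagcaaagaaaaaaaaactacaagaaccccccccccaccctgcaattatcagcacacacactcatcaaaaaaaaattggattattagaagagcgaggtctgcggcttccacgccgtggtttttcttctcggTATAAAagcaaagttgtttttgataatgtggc
Foxp3, second start: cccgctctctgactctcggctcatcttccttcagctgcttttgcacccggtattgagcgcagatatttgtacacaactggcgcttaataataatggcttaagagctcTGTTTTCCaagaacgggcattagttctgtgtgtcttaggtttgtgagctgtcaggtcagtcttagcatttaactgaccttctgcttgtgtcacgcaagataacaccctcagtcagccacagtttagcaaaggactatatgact
Gpr83: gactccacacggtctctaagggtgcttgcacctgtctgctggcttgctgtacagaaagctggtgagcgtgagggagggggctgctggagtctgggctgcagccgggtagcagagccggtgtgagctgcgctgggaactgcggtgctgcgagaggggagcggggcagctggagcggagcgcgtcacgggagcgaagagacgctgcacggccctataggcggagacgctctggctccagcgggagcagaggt
Fgl2: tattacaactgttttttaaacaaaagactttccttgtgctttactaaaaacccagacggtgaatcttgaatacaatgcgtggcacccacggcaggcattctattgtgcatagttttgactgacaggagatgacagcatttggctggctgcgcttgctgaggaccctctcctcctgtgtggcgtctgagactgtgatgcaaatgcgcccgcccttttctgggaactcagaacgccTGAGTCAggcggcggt

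The motifs searched on both strands were forkhead TGTTTAC and TGTTTNC, RUNX TGTGGT, AP-1 TGANTCA, NFAT GGAAAA, ETS GGAAGT and TATAAA. The first Foxp3 window held a TATAAA from 32 to 27 bases before the start, a motif found in 12.4% of 32851 such windows. The second held overlapping matches to TGTTTNC (17.8% of windows) and, on the reverse strand, to GGAAAA (20.4%), together covering bases 143 to 136 before the start. Fgl2 had a TGANTCA match 16 to 10 bases before its start, a pattern that reads alike on both strands and occurs in 6.75% of windows. Gpr83 held none of the 7 motifs, and its window was 66.8% G and C, against 37.6% in the first window of Foxp3. A match is a run of letters and not a shown binding site.

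Total counts ran from 38211406 to 64477566 per library. Levels are given as CPM (counts scaled to the TMM-adjusted library total), as mean ± SD with n = 4. Although the labels give both sexes as pooled, all 8 fresh libraries held 366 to 405 CPM of 4 Y-linked transcripts and at most 0.721 CPM of Xist, as did (at 326 to 334 CPM of the Y-linked set) replicate 3 of each of the rested and Treg groups. The other 9 rested and Treg libraries held 755 to 1736 CPM of Xist and at most 0.149 CPM of the Y-linked set. Comparisons of fresh with rested or Treg libraries are therefore also given, where it changes the result, in libraries with Y-linked reads only. Summed T cell markers were 2280 to 3355 CPM in every library. Summed B cell markers reached 4.11 to 6.02 CPM in fresh, 5.54 to 11.9 in rested and 31.5 to 33.8 in Treg libraries. Monocyte and macrophage markers (7 genes) summed to 15.0 to 20.6, 5.45 to 9.12 and 9.35 to 12.5 CPM, respectively.

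Comparing Treg with naive cells traces the sort itself, since Foxp3-GFP was the gate. Foxp3 was at 709, 734, 679 and 768 CPM in the Treg libraries, against 20.9 to 30.9 CPM in all 16 naive libraries. The difference was 4.91 ± 0.07 (log2 ± SE) against fresh CD5hi cells and 5.01 ± 0.07 against fresh CD5lo cells (edgeR quasi-likelihood test, adjusted p = 1.66e-22 and 2.26e-22). For all 10 genes the Treg libraries lay above those of each of the 4 naive groups without overlap, a count not made over all genes. All 10 were also called higher in Treg in each comparison. Of all genes tested, 27.5% were called higher against fresh CD5hi, 29.2% against fresh CD5lo, 34.1% against rested CD5lo and 33.5% against rested CD5hi. For the 6 genes that entered the test only through Treg this outcome was set by the filter, and the genes had been chosen as Treg genes. Of the 4 that passed on naive libraries alone, all 4 were higher in each of these comparisons. The median log2 difference of the 10 genes from fresh CD5hi was 8.03, against -0.02 over all genes tested. The 4 comparisons share the Treg libraries. Treg had no CD44 gate, and the 10 effector and memory T cell markers summed to 296 to 320 CPM in Treg, 24.1 to 37.1 CPM in fresh and 10.98 to 22.0 CPM in rested naive libraries; their part in these differences was not tested.

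Lrrc32 and Itgb8, which act on TGF-beta, were near 0 in naive cells. Lrrc32 was at 472, 438, 433 and 502 CPM in Treg. In fresh CD5lo cells it gave 2 counts in 1 of 4 libraries. Treg thus exceeded fresh CD5hi cells, with 17 counts, by 12.41 ± 0.27 on the log2 scale (adjusted p = 2.65e-19). Itgb8 averaged 25.4 ± 0.33 CPM in Treg, where its 4 libraries lay between 25.1 and 25.9, and gave 4, 11, 0 and 3 counts in all of fresh CD5lo, fresh CD5hi, rested CD5lo and rested CD5hi cells. Against the 0 counts of rested CD5lo cells, the Treg level was at least 1632-fold higher, with a floor of 3 counts over the group.

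The secreted molecules were also near 0 in naive cells. Fgl2 was at 47.8, 45.0, 61.4 and 56.7 CPM in Treg and no higher than 0.303 CPM in any naive library. Penk was at 45.4, 39.2, 42.9 and 34.9 CPM in Treg and no higher than 0.270 CPM in any naive library. Ebi3 averaged 17.0 ± 0.95 CPM in Treg and Il10 3.58 ± 0.77 CPM. B cells also use Ebi3, and the part of the B cell markers, highest in Treg as given above, was not tested. Macrophages also use Fgl2, and the summed monocyte and macrophage markers of Treg, given above, lay between those of rested and those of fresh naive libraries; their part was not tested. Il10 had the fewest counts of the 10 genes there, 133 to 244 per Treg library. It gave 5 and 2 counts in fresh CD5lo and CD5hi cells and 0 counts in both rested groups, for which Treg were at least 230-fold (CD5lo) and 214-fold (CD5hi) higher.

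The receptors differed more from one another. Nrp1 was at 350, 331, 305 and 343 CPM in Treg, 5.48 ± 0.14 above fresh CD5hi cells on the log2 scale (adjusted p = 2.87e-18). Klrg1 was at 43.3, 32.9, 45.9 and 49.2 CPM in Treg, and no naive library exceeded 0.270 CPM. Gpr83 had the smallest difference, with 167, 173, 165 and 173 CPM in Treg and 2.57 ± 0.14 on the log2 scale above fresh CD5hi cells (adjusted p = 7.65e-13). The values for Treg against the other naive groups lay between 2.72 (Gpr83 from rested CD5hi) and 15.3 (Lrrc32 from fresh CD5lo). The latter rests on the 2 counts named above. Its ratio of summed levels had a 95% Poisson interval from 13887 to 414236. Such intervals, here and below, cover counting error only and are too narrow, as both mates of a pair appear to have been counted.

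**Figure D1:**
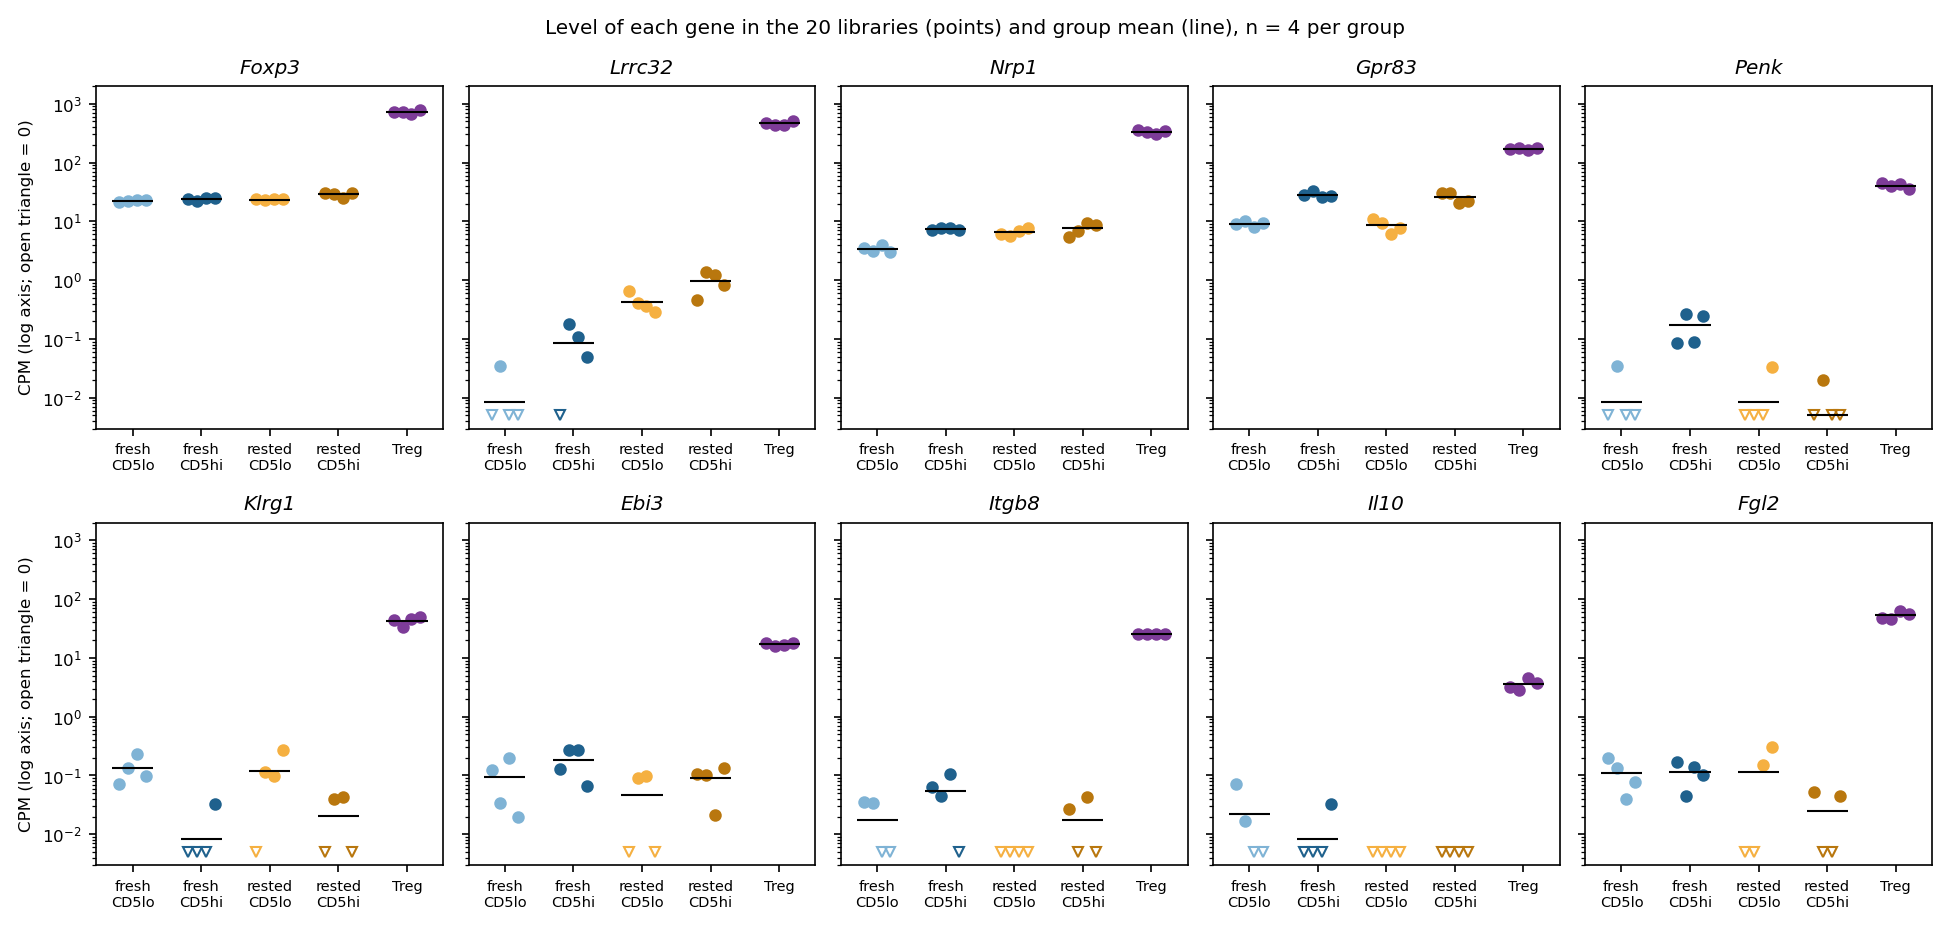
CPM of the 10 genes in each of the 20 libraries (log axis), by group, with the group mean as a line and libraries at 0 as open triangles. Each gene's 4 Treg libraries sit above all 16 naive libraries, and only Foxp3, Nrp1 and Gpr83 stay above 1 CPM in every naive library.

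To set the naive levels on one scale per gene, each was expressed as a percentage of the gene's own mean in Treg. Gpr83 was the highest, at 5.39% in fresh CD5lo, 16.8% in fresh CD5hi, 5.02% in CD5lo cells after resting and 15.2% in rested CD5hi cells. Foxp3 followed with 3.09, 3.33, 3.23 and 3.96% in the same order, and Nrp1 with 1.03, 2.24, 1.98 and 2.28%. Of the 10 genes, 7, 6, 7 and 7 were below 1% in the 4 groups in that order. As a ratio, Lrrc32 spanned the widest range among genes with counts in every naive group, from 0.0018% (fresh CD5lo) to 0.21% (rested CD5hi), the former resting on 2 counts. Of a further 28 genes known to be high in Treg, 14, 9, 12 and 7 were below 1% in the same groups; the difference between the lists was not tested. Bulk RNA cannot tell a few cells with a full level from many cells with little.

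Foxp3 gave a low signal in every naive library. It was at 20.9, 22.4, 23.3 and 22.8 CPM in fresh CD5lo cells and at 23.6, 22.4, 25.4 and 24.98 CPM in fresh CD5hi cells, which overlap. It was carried by 955 to 1501 counts per naive library, so that counting error was small beside the difference from Treg. In the GENCODE vM21 annotation of GRCm38, which is not the authors' mm9 build, exons of Foxp3 overlap those of Ppp1r3f, Ccdc22 and Gm36995 on the other strand and of Flicr on its own. Ppp1r3f was at 21.5, 27.8, 26.7 and 28.7 CPM in the naive groups (fresh CD5lo, fresh CD5hi, rested CD5lo, rested CD5hi) and at 32.5 CPM in Treg, and Ccdc22 at 48.8, 50.4, 60.1, 60.1 and 29.4 CPM. Without strand information, reads of Foxp3 and of such partners cannot be told apart, and the part of the latter in the naive Foxp3 level was not tested. Penk and Ebi3 also overlap a transcript on the other strand (A830012C17Rik and Gm16712).

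**Figure D2:**
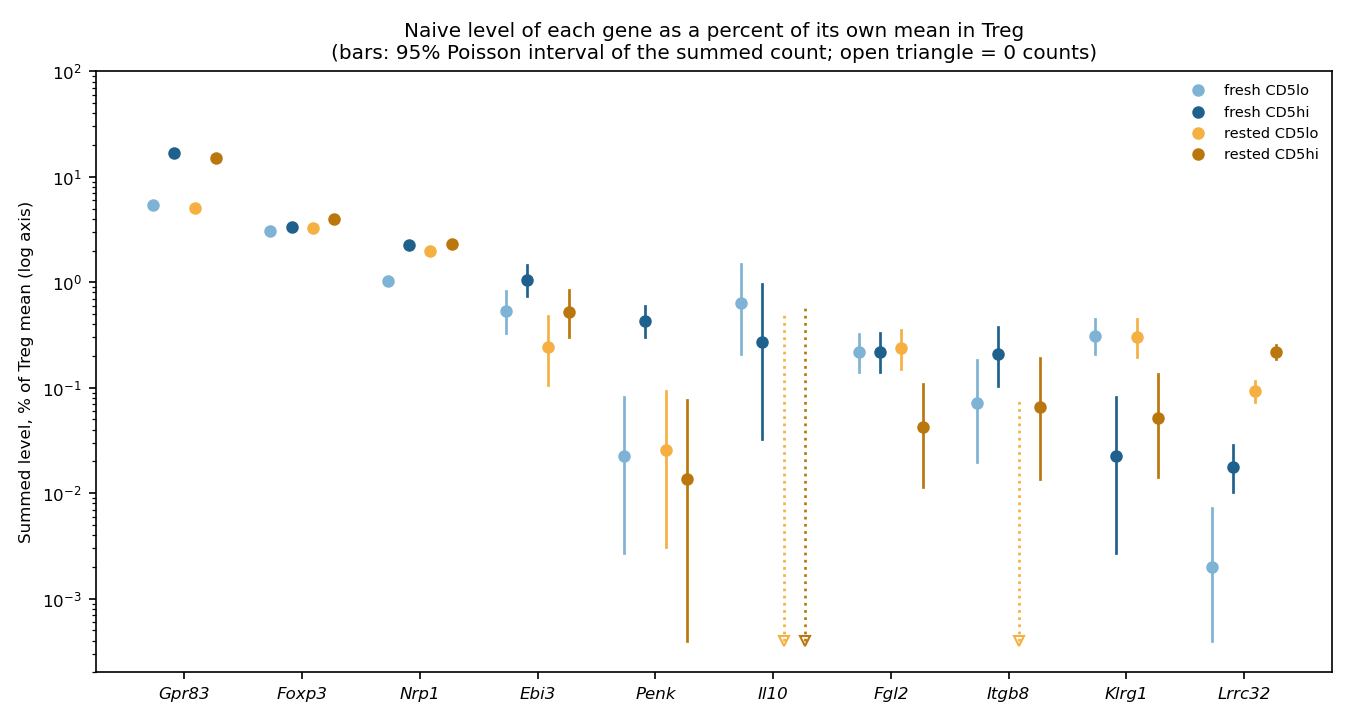
Summed level of each gene in the 4 naive groups as a percentage of its own Treg mean (log axis). Bars are 95% Poisson intervals of the summed counts, which cover counting error only and are too narrow. Open triangles mark 0 counts. Gpr83, Foxp3 and Nrp1 lie at or above about 1% of Treg, and Lrrc32 climbs with resting from the lowest value with counts, 0.0020% (0.0018% as the mean of libraries).

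Among fresh naive cells, which were taken at homeostasis, high CD5 went with higher Gpr83, Nrp1 and Penk and with lower Klrg1. Of the 10 genes, 3 were higher in CD5hi cells, where 6.86% of all genes tested were called higher, and 1 was lower, where 4.59% were called lower. The median log2 difference of the 10 genes was 1.03, against -0.01 over all genes tested.

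Gpr83 was at 9.01, 10.1, 8.14 and 9.35 CPM in CD5lo and at 28.4, 32.2, 26.2 and 27.4 CPM in CD5hi cells. Every CD5hi library exceeded every CD5lo library, by 1.64 ± 0.14 on the log2 scale (edgeR, adjusted p = 1.83e-08). Nrp1 was at 3.58, 3.13, 4.03 and 2.99 CPM in CD5lo and at 7.25, 7.62, 7.77 and 7.19 CPM in CD5hi cells. The libraries of the 2 groups did not overlap, and the difference was 1.12 ± 0.13 (adjusted p = 2.67e-06). Both receptors nonetheless remained below their Treg level in every CD5hi library.

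Penk, the enkephalin precursor, gave 4, 12, 5 and 15 counts in the fresh CD5hi libraries and 0, 2, 0 and 0 in the fresh CD5lo libraries. All CD5hi libraries thus lay above all CD5lo libraries (3.92 ± 0.73, adjusted p = 0.00065), at under 0.3 CPM. The ratio of summed levels was 18.9 with a 95% Poisson interval from 4.87 to 162. Klrg1 went the other way, with 4, 8, 12 and 5 counts in CD5lo libraries and 0, 0, 0 and 2 in CD5hi libraries (-3.49 ± 0.98, adjusted p = 0.021). Its level in CD5lo cells was 13.8 times that in CD5hi cells (95% interval 3.49 to 119), and its call was lost when fresh CD5lo replicate 3 or fresh CD5hi replicate 1, 2 or 3 was left out (adjusted p = 0.059 to 0.077). Klrg1 is also used by NK and CD8 T cells. Their summed markers were 70.2 to 81.1 CPM in fresh CD5lo and 34.3 to 37.0 CPM in fresh CD5hi libraries. Prf1 led, at 41.4 and 20.7 CPM. Of the 7 markers tested, 4 were lower and 1 was higher in fresh CD5hi cells (4.59 and 6.86% of all genes). The part of such cells in the Klrg1 difference was not tested.

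Foxp3 itself was not called between the fresh groups, at 22.4 ± 1.02 and 24.1 ± 1.39 CPM (0.11 ± 0.06, 95% interval -0.02 to 0.24, adjusted p = 0.35). Lrrc32, with 2 and 17 counts, did not pass (2.86 ± 1.16, adjusted p = 0.14), although DESeq2 called it (3.18, adjusted p = 0.039). Ebi3 (20 and 37 counts), Itgb8 (4 and 11), Il10 (5 and 2) and Fgl2 (25 and 24, CD5lo first) were not called, with adjusted p from 0.38 to 0.998, and their counts set wide limits on any difference.

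**Figure D3:**
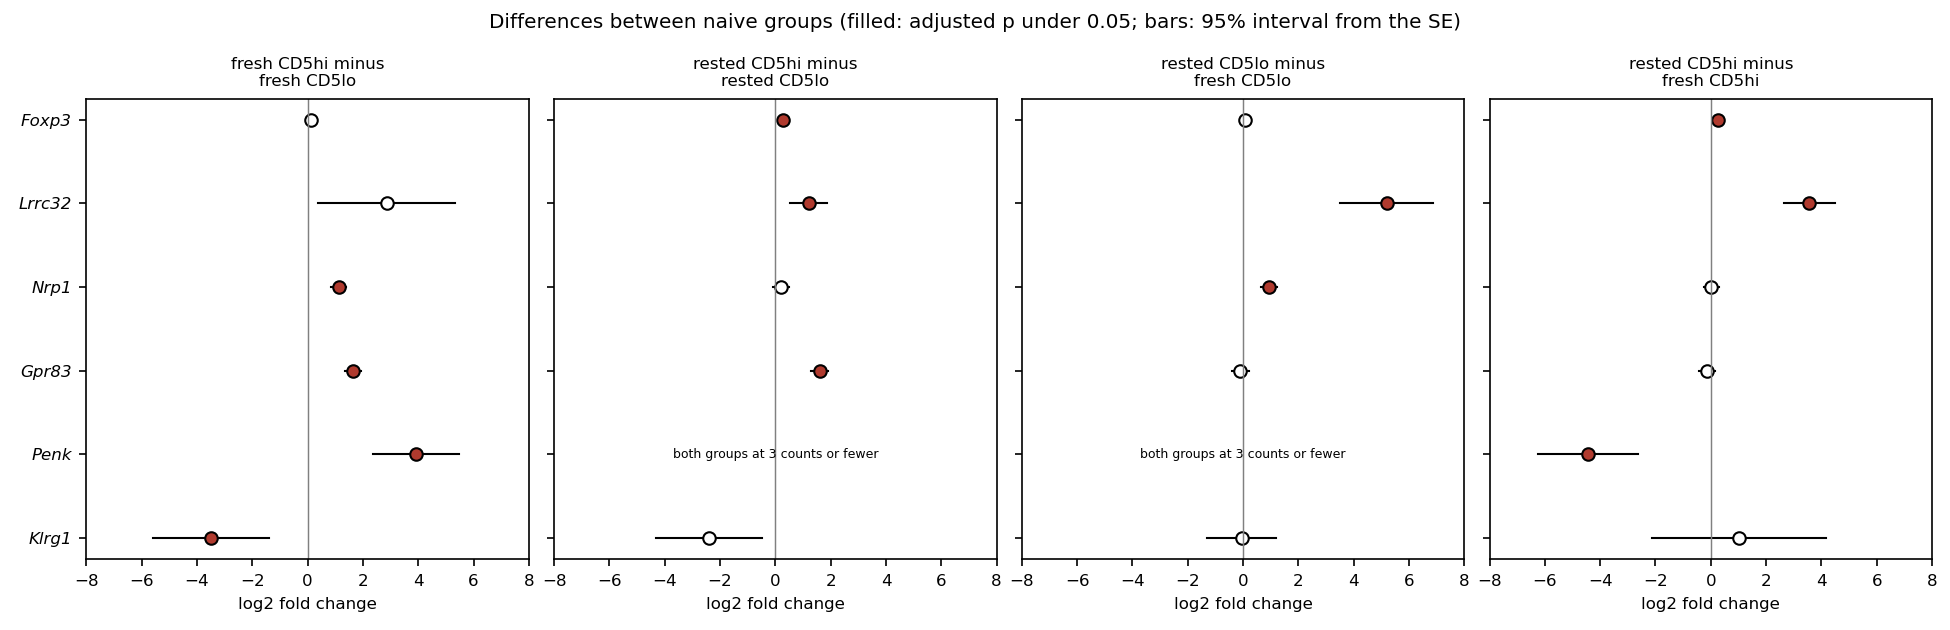
Log2 fold changes between naive groups for the 6 genes with the most naive counts or a called difference, with 95% intervals from the SE; filled points have an adjusted p under 0.05 by edgeR. Gpr83 stands at 1.64 and 1.60 in the 2 CD5 comparisons and near 0 in the 2 resting comparisons, while Lrrc32 stands at 5.20 and 3.56 in the latter.

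Resting, which removes contact with self-peptide and adds interleukin 7, raised Lrrc32 in both CD5 groups and Nrp1 in CD5lo cells. In CD5lo cells 2 of the 10 genes were higher after resting (26.9% of all genes tested were called higher) and the other 8 were not called. In CD5hi cells 2 were higher (26.2% of all genes) and 1 was lower (26.2% of all genes). Only 4 of the 10 genes (Foxp3, Lrrc32, Nrp1 and Gpr83) passed the filter on naive libraries alone. All genes called higher here were among these 4, and the gene called lower, Penk, was not. The others had few naive counts, which limits what can be called, so nothing is read from these counts beside the shares of all genes.

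Lrrc32 rose from 0, 2, 0 and 0 counts in fresh CD5lo libraries to 32, 18, 15 and 17 counts in rested ones. In CD5hi libraries it rose from 0, 8, 6 and 3 to 17, 69, 57 and 37 counts. Every rested library exceeded every fresh library of its CD5 group. The log2 differences were 5.20 ± 0.79 in CD5lo cells (adjusted p = 1.14e-05) and 3.56 ± 0.44 in CD5hi cells (adjusted p = 7.29e-07), and the ratios of summed levels were 46.4 (95% interval 12.4 to 390) and 12.2 (7.44 to 21.5). At 0.431 ± 0.16 and 0.970 ± 0.42 CPM, rested cells remained far below the 461 ± 32.3 CPM of Treg.

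Nrp1 in CD5lo cells went from the fresh values above to 5.99, 5.71, 6.93 and 7.63 CPM after resting. These do not overlap with the fresh libraries (0.94 ± 0.14, adjusted p = 6.20e-06). In CD5hi cells it was at 5.36, 6.80, 9.35 and 8.74 CPM after resting, a spread that surrounds the fresh values (0.02 ± 0.13, adjusted p = 0.89). Replicates 1 and 2 of the rested CD5hi cells lay below and replicates 3 and 4 above all 4 fresh libraries. With rested replicates 1 and 2 only, a choice made after seeing the data, the change was -0.30 (adjusted p = 0.023), and with replicates 3 and 4 only it was 0.29 (adjusted p = 0.014). In libraries with Y-linked reads only, of which replicate 3 is the sole rested CD5hi library, it was 0.34 (adjusted p = 0.027).

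Penk fell in CD5hi cells from 36 counts to 1 count over 4 libraries each, without overlap (-4.45 ± 0.85, adjusted p = 0.00016). The fresh level was 31.1 times the rested one, with a 95% interval from 5.24 to 1263. In CD5lo cells both groups gave 2 counts in all, too few to compare.

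Gpr83 was at 11.1, 9.28, 6.09 and 7.62 CPM in CD5lo and 30.3, 30.2, 20.6 and 22.3 CPM in CD5hi cells after resting. Neither group was called against its fresh counterpart (-0.10 ± 0.14, adjusted p = 0.57, and -0.14 ± 0.13, adjusted p = 0.39). Replicates 3 and 4 were lower than replicates 1 and 2 in both. With replicates 3 and 4 only, Gpr83 was lower after resting in both CD5 groups (-0.40, adjusted p = 0.0022, and -0.41, adjusted p = 0.00092), as it was in libraries with Y-linked reads only, where replicate 3 is the 1 rested library of each group and is shared with the former setting (-0.58, adjusted p = 0.0045, and -0.46, adjusted p = 0.0060). With replicates 1 and 2 only the values were 0.15 (adjusted p = 0.20) and 0.07 (adjusted p = 0.49).

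Foxp3 was called in CD5hi cells and not in CD5lo cells. In CD5lo cells the rested libraries were at 23.6, 22.6, 23.6 and 23.7 CPM, of which only replicate 2 lay inside the fresh range (0.06 ± 0.06, adjusted p = 0.40). In CD5hi cells the rested libraries were at 29.8, 29.2, 24.6 and 30.9 CPM, higher than fresh by 0.25 ± 0.06 (adjusted p = 0.0019), with replicate 3 inside the fresh range. Foxp3 is X-linked, and replicate 3 is the rested CD5hi library with Y-linked reads, as all fresh libraries are. In libraries with Y-linked reads only, which leaves 1 rested library, the change was 0.04. Rested CD5lo replicate 3 also carried Y-linked reads and, at 23.6 CPM, lay inside the range of the other rested CD5lo libraries. The part of sex in the Foxp3 difference was not tested.

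The remaining genes had very few counts after resting. Il10 had 0 counts in both rested groups, for which 3 counts would be 0.0156 CPM (CD5lo) and 0.0167 CPM (CD5hi). Fgl2 gave 0, 0, 6 and 18 counts in rested CD5lo libraries and 2, 0, 0 and 2 in rested CD5hi libraries. Klrg1 gave 0, 5, 4 and 16 and then 0, 2, 2 and 0 counts in the same libraries. Rested CD5lo replicate 4 thus held most of the Fgl2 and Klrg1 counts of its group. Neither gene was called against the fresh groups (adjusted p = 0.077 to 0.95), although Fgl2 was called lower after resting in CD5hi cells with the compared groups alone (-2.24, adjusted p = 0.047). Ebi3, with 20 and 37 counts in fresh and 8 and 16 counts in rested CD5lo and CD5hi cells, was not called (adjusted p = 0.27 and 0.19).

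**Figure D4:**
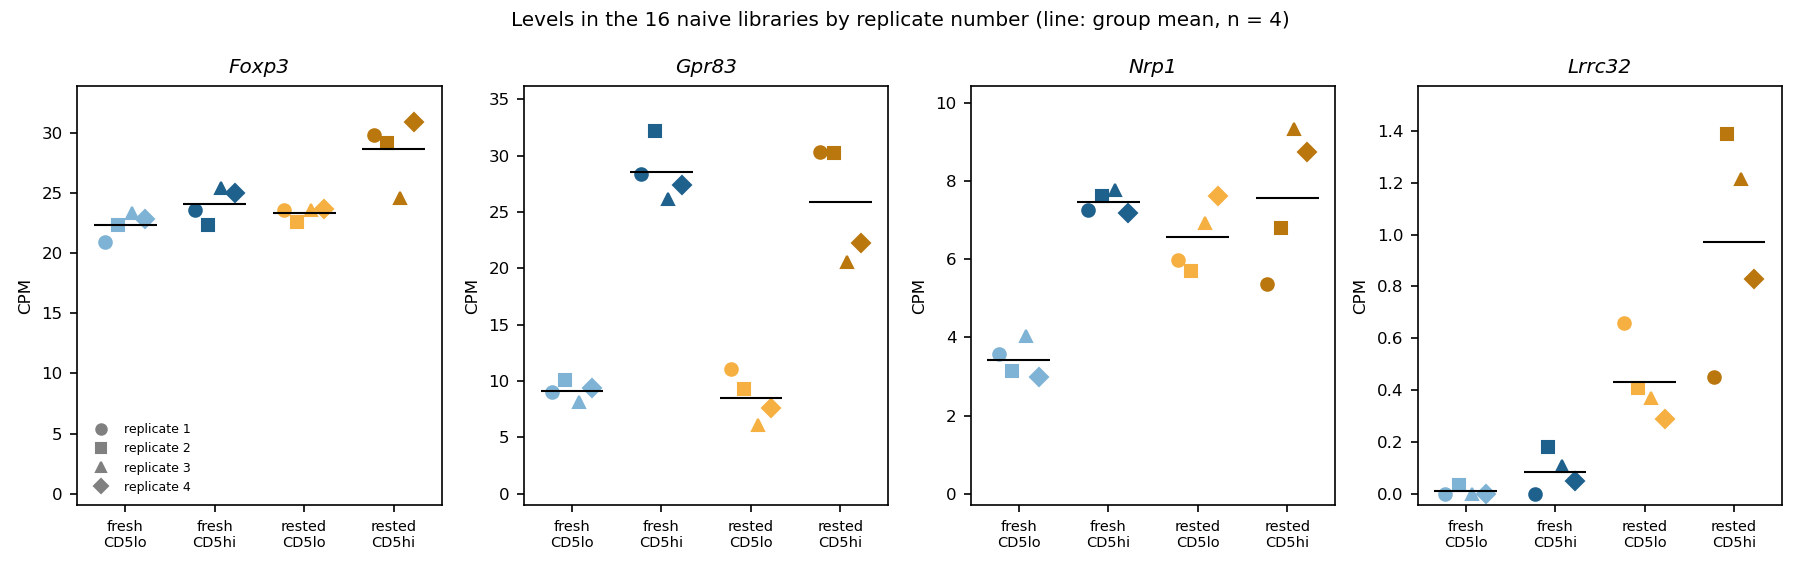
CPM of Foxp3, Gpr83, Nrp1 and Lrrc32 in the 16 naive libraries (linear axes), with the replicate number as the symbol and the group mean as a line. Gpr83 stays parted by CD5 in both states, whereas Nrp1 is parted by CD5 in fresh cells only, and in rested CD5hi cells replicates 3 and 4 lie above replicates 1 and 2 for Nrp1 and below them for Gpr83.

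After resting, 3 of the 10 genes were higher in CD5hi than in CD5lo cells, where 4.74% of all genes tested were called higher, and the other 7 were not called. Gpr83 kept its difference, with no overlap of libraries (1.60 ± 0.14, adjusted p = 6.24e-08). Foxp3 was higher by 0.29 ± 0.06, again without overlap (adjusted p = 0.0032). That call was lost with the 2 groups fitted alone (adjusted p = 0.085) and with replicates 3 and 4 only (0.23, adjusted p = 0.19). Lrrc32 was higher by 1.22 ± 0.31 (adjusted p = 0.016), with CD5hi replicate 1 (0.451 CPM) inside the CD5lo range of 0.286 to 0.659 CPM. It was not called with the replicate numbers as a block (1.13, adjusted p = 0.063), with the 2 groups alone (adjusted p = 0.16), with replicates 1 and 2 only (adjusted p = 0.29), without rested CD5lo replicate 4 (adjusted p = 0.073) or without rested CD5hi replicate 2 (adjusted p = 0.088). Nrp1 was at 6.57 ± 0.88 and 7.56 ± 1.83 CPM and was not called (0.20 ± 0.13, 95% interval -0.07 to 0.48, adjusted p = 0.45).

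The test of whether resting altered the CD5 difference called 1 of the 10 genes, Nrp1, where 0.451% of all genes were called. Its CD5 difference was smaller after resting by 0.91 ± 0.19 on the log2 scale (-0.91, adjusted p = 0.025). The call was lost with the 4 naive groups fitted alone (-0.92, adjusted p = 0.10) and when any 1 of 7 libraries was left out (fresh CD5lo replicates 2 and 4, fresh CD5hi replicates 2 and 3, rested CD5lo replicates 3 and 4, rested CD5hi replicate 2; adjusted p = 0.050 to 0.077). It was kept with the replicate block (-0.94, adjusted p = 0.0012). For Gpr83 the change was -0.04 ± 0.20 (95% interval -0.46 to 0.38). Foxp3 gave 0.18 ± 0.09 (adjusted p = 0.76), Lrrc32 -1.64 ± 1.22 and Penk -4.59 ± 2.01 (adjusted p = 0.69).

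The molecules that work with these genes were present to different degrees. Of 19 second chains, ligands, receptors and processing enzymes, 16 were tested. Of these, 11 were higher and 3 lower in Treg than in fresh CD5hi cells (27.5 and 26.6% of all genes). The median log2 difference was 0.72. Among the 11, Ltbp1 (0 counts in every naive group) and Cpe (0 to 9 counts per naive group) entered the test only through Treg. For both the outcome was set by the filter. In TGF-beta release, Tgfb1 itself (127 ± 5.31 CPM in fresh CD5hi and 179 ± 17.1 in Treg, 0.49 ± 0.06, adjusted p = 1.13e-06) and the Itgb8 partner Itgav (37.8 ± 2.997 and 78.1 ± 5.85 CPM, 1.05 ± 0.07, adjusted p = 4.11e-11) were present in naive cells as well. Lrrc32 and Itgb8, which dock to them, were near 0 there. Ltbp1, which binds latent TGF-beta in the matrix, gave 0 counts in all 16 naive libraries and 1.22 ± 0.35 CPM in Treg, at least 86.0-fold above fresh CD5hi cells.

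Ebi3 needs a second chain to form a cytokine, Il12a for interleukin 35 and Il27 for interleukin 27. In the Treg libraries Il12a gave 2 counts in all and Il27 gave 0, so that both were at or under the floor of 3 counts, 0.0145 CPM, beside 17.0 CPM of Ebi3. Neither was above 0.0682 CPM in any of the 20 libraries.

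Transcripts that act on Il10 and its receptor differed too. Maf, a factor known to drive Il10, was at 4.79 ± 1.23 CPM in fresh CD5hi cells and 172 ± 18.7 CPM in Treg (5.18 ± 0.21, adjusted p = 4.36e-15). Prdm1 (Blimp-1), another such factor, was lower in fresh CD5hi (7.29 ± 1.32 CPM) than in fresh CD5lo cells (11.4 ± 2.30 CPM, -0.65 ± 0.13, adjusted p = 0.0017) and was at 39.9 ± 4.71 CPM in Treg. Il10ra, the ligand-binding chain of the receptor, was higher in fresh CD5hi than in CD5lo cells (32.4 ± 2.07 and 15.99 ± 0.87 CPM, 1.02 ± 0.08, adjusted p = 9.45e-09). Its rested means were 124 (CD5lo) and 155 CPM (CD5hi), beside 125 CPM in Treg.

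Enkephalins are cut from their precursor by several enzymes. Pcsk1, a proprotein convertase, was at 4.03 ± 0.74 CPM in fresh CD5lo and 0.262 ± 0.15 CPM in fresh CD5hi cells (-3.88 ± 0.30, adjusted p = 4.77e-09), the reverse of Penk. It rose with resting in CD5hi cells to 1.36 ± 0.36 CPM (2.32 ± 0.32, adjusted p = 4.12e-06). In rested CD5lo cells it averaged 12.0 ± 2.39 CPM, but in Treg 0.314 ± 0.12 CPM. Cpe, the carboxypeptidase that trims such peptides, was at 4.30 ± 0.27 CPM in Treg and at 0 counts in fresh CD5hi cells, at least a 298-fold difference.

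Other Treg genes set the 10 in context, although that list was drawn up as Treg genes and its direction is no separate evidence. All 28 were higher in Treg than in fresh CD5hi cells, where 27.5% of all genes tested were called higher (median 4.91 on the log2 scale, against -0.02 over all genes), led by the interleukin 2 receptor chain Il2ra (8.97 ± 0.12, adjusted p = 1.66e-22), the signalling inhibitor Socs2 (8.87 ± 0.21, adjusted p = 6.03e-19) and the chemokine receptor Ccr6 (8.83 ± 0.32, adjusted p = 9.88e-16). Ccr6 averaged 0.049 to 0.13 CPM in the naive groups and 45.3 CPM in Treg. Genes of this list that were near 0 in naive cells, as Ccr6 was, entered the test through Treg, and their outcome was set by the filter. Between fresh CD5hi and CD5lo cells 16 of the 28 were higher and 2 lower (6.86 and 4.59% of all genes), with a median of 0.97, against -0.01 over all genes. The largest were the costimulatory receptor Tnfrsf9 (2.82 ± 0.12, adjusted p = 1.74e-13), Folr4 (folate receptor 4, 2.65 ± 0.07, adjusted p = 1.41e-16) and the ectoenzyme Nt5e (CD73, 2.58 ± 0.13, adjusted p = 3.23e-12).

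Of 12 genes known to be low in Treg, 11 were tested, and all 11 were lower in Treg than in fresh CD5hi cells, where 26.6% of all genes were called lower. Dapl1 (-5.14), the phosphodiesterase Pde3b (-4.88) and Igfbp4 (-3.60) differed most. Between the fresh naive groups the same 3 went different ways, with Dapl1 (1.35) and Igfbp4 (0.84) higher and Pde3b (-0.75) lower in CD5hi cells, and the list counted 3 higher and 3 lower (6.86 and 4.59% of all genes).

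Of 24 factors known to act at the Foxp3 locus or with Foxp3, 12 were higher and 4 lower in Treg than in fresh CD5hi cells (27.5 and 26.6% of all genes). Irf4 (3.82 ± 0.21, adjusted p = 1.52e-12), the nuclear receptor Nr4a2 (2.20 ± 0.31, adjusted p = 3.70e-06) and the DNA methylation cofactor Uhrf1 (1.84 ± 0.14, adjusted p = 2.17e-10) led. Between fresh CD5hi and CD5lo cells 4 of the 24 were higher (6.86% of all genes): Nr4a1 (1.13), Nr4a3 (0.83) and Smad3 (0.28), with adjusted p from 1.73e-07 to 0.0033, and Nr4a2, which was under 1 CPM in both groups. Foxp3 itself was not called in that comparison, as given above.

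The nearest protein-coding neighbours of the 10 genes were read from RefSeq gene order. Of 20 neighbours 12 were tested, and 6 were higher and 1 lower in Treg than in fresh CD5hi cells (27.5 and 26.6% of all genes). Gpr83 lies beside Folr4 (Izumo1r), and both were higher in fresh CD5hi cells. Folr4 fell with resting in CD5hi cells from 224 to 69.3 CPM (-1.69, edgeR adjusted p = 2.71e-14). Gpr83 was not called there with all libraries (-0.14). It was lower by a smaller step with rested replicates 3 and 4 only (-0.41) and in libraries with Y-linked reads only (-0.46). Nrp1 lies beside the integrin chain Itgb1, which was at 59.8 CPM in fresh CD5hi cells and 341 CPM in Treg (2.51, adjusted p = 1.14e-11). Mre11a, on the other side of Gpr83, was at 31.8 to 37.7 CPM in all 5 groups.

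The genes most like each of the 10 over the 20 libraries were found by the mean absolute gap between centred log2(CPM + 0.5) values, among 10775 genes. Gpr83 was most like Ankrd55 (0.22), Kcnq5 (0.31) and Mki67 (0.31), which were likewise higher in CD5hi than in CD5lo cells in both states and highest in Treg. Nrp1 was most like S100a6 (0.25), Ttc39c (0.30) and Ccr2 (0.30). Lrrc32 had no close match, with Ikzf2 (0.86), Itgae (0.86) and Cd83 (0.94) nearest. Foxp3 was nearest to Matn2 (0.11), Il1r2 (0.15) and Npas4 (0.16), genes at under 0.3 CPM in every naive group, for which the added 0.5 sets the naive value. Klrg1 and Fgl2 were each other's nearest gene (0.18), and Penk was nearest to Ccr6 (0.17), Fgl2 (0.21) and Il1rl1 (0.21). Ebi3 was nearest to Ptpn5 (0.13), Itgb8 to Gpr15 (0.13) and Il10 to Wisp1 (0.062). The measure is dominated by the step from naive cells to Treg, which all of these genes share.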

How the data were processed

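Polyadenylated RNA of 20 libraries (5 groups of 4) was read as 50-base pairs, per the labels' protocols. The authors deposited raw read counts per gene symbol, and TopHat2 2.0.11, featureCounts 1.4.5 (Subread), edgeR and mm9 are named in the submitters' processing notes. For annotation and strandedness, nothing is given in the sources used here. The authors' other deposited table, a normalized signal of 10147 genes proportional to the counts in each library, served only as a check of the columns. Of counts from 1 to 10, 62.3 to 66.2% per library were even, so both mates of a pair appear to have been counted; Poisson intervals (95%) and floors (3 counts) cover counting error only and are too narrow.

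The count test was the quasi-likelihood test of edgeR 4.0.16 under R 4.3.3 (TMM scaling, default filter, 1 factor of 5 groups, 15 residual degrees of freedom). P-values were adjusted by Benjamini-Hochberg over 13309 genes, with calls at adjusted values under 0.05. The SE is the log2 change over the square root of its F. The interaction is the rested minus the fresh CD5 difference. The test was run on simulated data first. Alternatives were DESeq2 1.42.0, DESeq2-type size factors in edgeR, no filter, compared groups alone, each library left out, replicate blocks, libraries with Y-linked reads only and unscaled totals.

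The 10 genes and all gene lists were chosen with earlier results of these data known. All 10 are named. From each other list the text names the 3 called genes with the largest change (at least 1 CPM in the higher group) in Treg against fresh CD5hi and in fresh CD5hi against CD5lo, with direct partners and the 3 genes most like each of the 10; Nr4a2 in fresh cells, the neighbours and further partners of Penk, Ebi3 and Il10 were added after values were seen. Same-numbered CD5lo and CD5hi libraries deviated together from their group means (r = 0.41 to 0.68 fresh and 0.33 to 0.82 rested, over 11116 genes). Differently numbered libraries reached r = 0.16 in fresh and 0.61 in rested cells. The numbers thus pair the libraries in fresh cells, while in rested cells the pairing is less certain. No 2 libraries were identical. RefSeq tables gave sequences and gene order, and their coordinates are of GRCm38.p6, not of the authors' build.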

Additional observations from a re-analysis of the deposited data

Results flagged for a closer look

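In 7 of 50 sets of 4 libraries (10 genes by 5 groups) 1 library lay far from the other 3. In rested CD5lo cells Foxp3 was lowest in replicate 2, at 22.6 CPM, with the nearest library at 23.6 CPM. Chance gives about 1 in 20 such sets for continuous values. That rate does not apply to the other 6, single libraries with 1 or 2 counts where the other 3 had 0: Lrrc32 and Penk in fresh CD5lo replicate 2 (0.034 CPM each), Penk in rested CD5lo replicate 4 (0.0337 CPM) and rested CD5hi replicate 2 (0.0201 CPM), and Klrg1 and Il10 in fresh CD5hi replicate 4 (0.0333 CPM each).

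The CD5 difference of Nrp1 itself differed between the states, by -0.91 on the log2 scale (edgeR interaction, adjusted p = 0.025). CD5hi minus CD5lo was 1.12 in fresh and 0.20 in rested cells, and all 4 fresh CD5lo libraries lay below the other 12 naive libraries. The call is lost under the settings given with the result.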

How the results depend on the processing

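Of 1415 values recomputed for named genes under an alternative, 1370 kept their direction and side of the threshold. Calls were lost in 20 and gained in 8, and 17 values, none called in the fit reported, changed sign. Among the 17, Nrp1 in rested against fresh CD5hi became called with rested replicates 1 and 2 only (-0.30, edgeR adjusted p = 0.023). That call is not among the 8. The 1415 include the comparisons with Treg. They leave out differences between naive groups of Ebi3, Itgb8, Il10 and Fgl2, whose gained calls are named in the text and are not among the 8. All 10 genes stayed higher in Treg than in each naive group under every alternative run. The number of the 10 called for rested CD5hi against rested CD5lo cells was 3, but 1 with the compared groups alone. For the interaction it was 1, but 0 with the naive groups alone and 0 to 1 when a library was left out. For rested against fresh CD5hi it was 3, but 5 with Y-linked libraries only and 5 with rested replicates 3 and 4 only (Nrp1 and Gpr83 gained in both; in the former Fgl2 was also gained, at -5.60, and Foxp3 lost). Leaving out 1 library gave 3 to 4 for fresh CD5hi against CD5lo, 2 to 4 for rested CD5hi against CD5lo and 3 to 4 for rested against fresh CD5hi.

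Sign changes occurred when 1 library was left out: Klrg1 in rested against fresh CD5lo (-0.05 reported, range -0.95 to 0.37), the Gpr83 interaction (-0.04 reported, range -0.17 to 0.11), Gpr83 in rested against fresh CD5lo (range -0.25 to 0.024, above 0 only without rested CD5lo replicate 3) and Nrp1 in rested against fresh CD5hi (range -0.093 to 0.15, below 0 without rested CD5hi replicate 3 or 4). With rested replicates 1 and 2 only, Gpr83 turned to 0.15 in CD5lo and 0.074 in CD5hi cells and Nrp1 to -0.30 in CD5hi cells; with replicates 3 and 4 only, Klrg1 turned to 0.57 in CD5lo cells. Klrg1 in rested CD5hi against CD5lo was called without rested CD5lo replicate 1 (-2.82, adjusted p = 0.022). Fgl2 was called in rested against fresh CD5lo with rested replicates 1 and 2 only (-5.57) and in rested CD5hi against CD5lo with replicates 3 and 4 only (-3.31), and Itgb8 in rested against fresh CD5hi without fresh CD5hi replicate 4 (adjusted p = 0.038). The cause was not tested.

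Over all genes, the replicate block within states raised the calls from 1524 to 2780 in fresh CD5hi against CD5lo, from 1092 to 2402 in rested CD5hi against CD5lo and from 60 to 357 in the interaction; among the 10 genes it ended the call of Lrrc32 in rested cells (1.13) and no other. The interaction gave 131 calls with DESeq2, and 38 and 36 without fresh CD5lo replicate 4 and fresh CD5hi replicate 2. The rested CD5 comparison gave 484 with its groups alone and 642 with replicates 3 and 4 only. Unscaled totals raised 6 Treg levels by more than 1 SD (Foxp3 to 777, Lrrc32 496, Nrp1 357, Gpr83 183, Ebi3 18.3 and Itgb8 27.4 CPM) and put Foxp3 in rested CD5lo at 22.0 CPM. Where a group had 1 library left, it was assumed to vary like the others. Counts of 0 to 37 per group limit Il10, Itgb8, Penk, Ebi3, Klrg1 and Fgl2 in naive cells.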
